A study of Caenorhabditis elegans with 3 samples.

Results

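Linker histones, the H1 family, bind the DNA that enters and leaves a nucleosome and help to pack nucleosomes into denser chromatin. A linker histone has a globular winged-helix domain and a long, lysine-rich tail, and animals carry several H1 genes that differ in where and when they are used. In the nematode Caenorhabditis elegans the best studied member is his-24, which is needed for normal germline development and for keeping repeated transgenes silent in germ cells. The genes described here are his-24, hil-3, hil-4 and hil-5, 4 of the 15078 genes measured. They were found by gene symbol among the probes with a value on all 3 arrays. The set was chosen by the mean log2 ratios measured in these same samples, in which the 4 lay toward both ends of the histone genes, so their ratios are given as a description, with no test.

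The samples are 3 preps of early young adult hermaphrodites, which form 1 group, and each prep was hybridised to its own two-colour DNA microarray. The other channel of every array carried a mixed reference of wild-type mRNA. Each value is a log2 ratio, likely of worms over reference. That direction follows the labels, in which channel 1 holds the reference and channel 2 the worms, but no dye is stated, and a turned sign would reverse every direction below. The genotype of the worms, the makeup of the reference and whether the preps came from separate cultures are not stated either. The p-values below thus cover no more than the spread among the preps, which may be technical, and their precision is limited by the number of arrays.

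Marker genes of adult and germline tissue stood above the reference. A gene was called where limma, a moderated one-sample test against a ratio of 1, gave an adjusted p under 0.05, and of all genes 21.7% were called above and 22.2% below. All 3 adult cuticle collagen genes, 9 of 9 germline genes, 10 of 10 sperm genes and 8 of 9 oocyte genes were above the reference. Below it were 6 of 7 genes of moulting larvae, 6 of 8 embryonic genes and 5 of 9 neuronal genes. Of 7 body wall muscle genes 2 were above and 0 below, and of 8 intestinal genes 3 were above and 2 below. Of 6 genes of male neurons, 1 was below and 5 were not called. In whole worms, fewer cells of a type and less RNA per cell cannot be told apart, and how far tissue makeup sets the H1 ratios was not tested. The arrays correlated over probes at Pearson's r of 0.80 for preps 1 and 2, 0.77 for preps 1 and 3 and 0.91 for preps 2 and 3.

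The 4 H1 genes split into a pair above the reference and a pair below it, with no overlap on any array. hil-5 and hil-4 stood on average 2.44-fold and 2.30-fold above the mixed reference. his-24 and hil-3 stood 3.84-fold and 5.06-fold below it. In the fit over all genes 2 of the 4 were called above and 2 below, where 44% of all genes were called in either direction, and nothing is read from that count because the same ratios chose the genes. A ratio does not give the amount of an mRNA, so the order below is one of ratios and not of abundance.

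hil-5, an H1 gene on chromosome I, had log2 ratios of 1.00, 1.53 and 1.34 in preps 1, 2 and 3, a mean of 1.29 ± 0.27 (SD, n = 3). All 3 preps thus held more hil-5 RNA than the reference, with prep 1 the lowest at 2.00 times the reference and prep 2 the highest at 2.88 times. On this measure 438 genes were higher than hil-5, or 2.90% of those measured. Within single arrays the number of higher genes was 945 in prep 1, 361 in prep 2 and 440 in prep 3.

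hil-4, an H1 gene on chromosome V, was almost level with hil-5. Its log2 ratios were 0.998, 1.35 and 1.26 in preps 1, 2 and 3, a mean of 1.203 ± 0.18 (SD, n = 3). The ranges of the pair overlapped. hil-5 was higher on every array, by 0.005, 0.18 and 0.08 in preps 1, 2 and 3, a mean difference of 0.09 ± 0.09 (SD) that is no larger than its own spread. With the running median over neighbouring probes removed, hil-4 had the higher mean, 1.27 against 1.01 for hil-5. In all, 3.52% of genes were higher than hil-4 in the ratios as deposited.

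his-24, on the X chromosome, had log2 ratios of −1.31, −2.0 and −2.51 in preps 1, 2 and 3, a mean of −1.94 ± 0.60 (SD, n = 3). On the linear scale the worms held 0.402, 0.250 and 0.176 of the reference level. Every prep was well below the reference, but the preps differed more for his-24 than for most genes: its SD was larger than that of 97.0% of genes, against a median SD of 0.22. Without prep 1 its mean was −2.25 and without prep 3 it was −1.66.

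hil-3, the other X-linked member, was the lowest of the family. Its log2 ratios were −1.93, −2.39 and −2.70 in preps 1, 2 and 3, a mean of −2.34 ± 0.39 (SD, n = 3). That is 0.262, 0.191 and 0.154 of the reference level. Only 105 of the 15078 genes were lower by mean ratio, or 0.696%. hil-3 was below his-24 on every array, yet the ranges of the pair overlapped. The difference of his-24 minus hil-3 was 0.62, 0.39 and 0.19 in preps 1, 2 and 3, a mean of 0.40 ± 0.21 (SD).

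**Figure D1:**
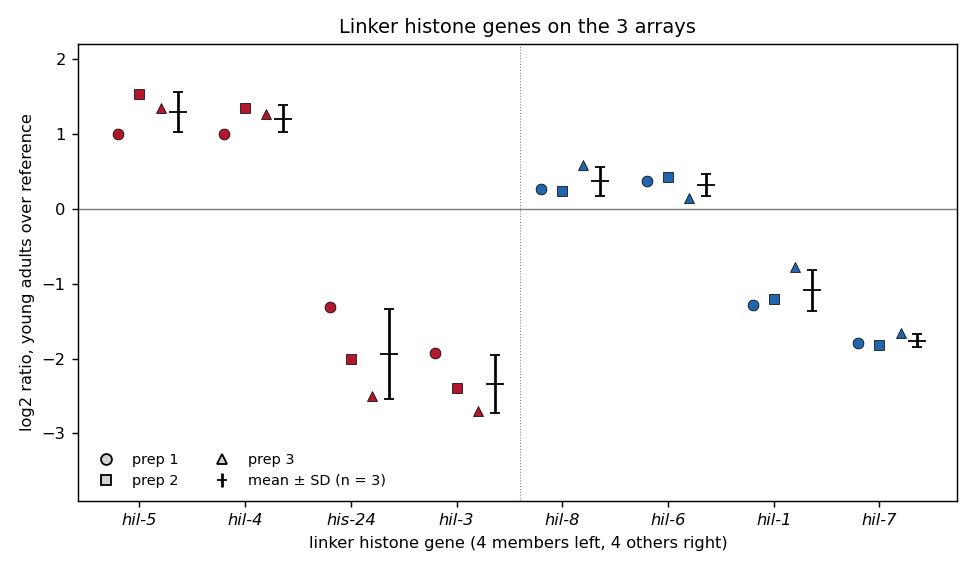
Log2 ratio of young adults over the mixed reference (y axis) for the 8 measured linker histone genes (x axis), the 4 described in full in red on the left and the 4 others in blue on the right. Symbols are preps 1, 2 and 3 and bars show the mean ± SD (n = 3). hil-5 and hil-4 sit at or above 0.998 in every prep, and his-24 and hil-3 at or below −1.31.

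The distance between the pairs was 2.62, 3.63 and 3.90 log2 units in preps 1, 2 and 3, taken as the mean of hil-5 and hil-4 minus the mean of his-24 and hil-3. Its mean was 3.39 ± 0.67 (SD, n = 3), a 10.5-fold difference between the ratios of the pairs. Prep 1 had the smallest distance, and all 4 genes were nearest to the reference in that prep. Over all probes prep 1 also had the narrowest ratios, with an SD of 0.69 against 0.77 in prep 2 and 0.73 in prep 3. With the arrays scaled to a common median absolute value the mean distance over the preps was 3.40. That mean does not show the distance in prep 1 alone, so the part of its narrower ratios was not tested.

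**Figure D2:**
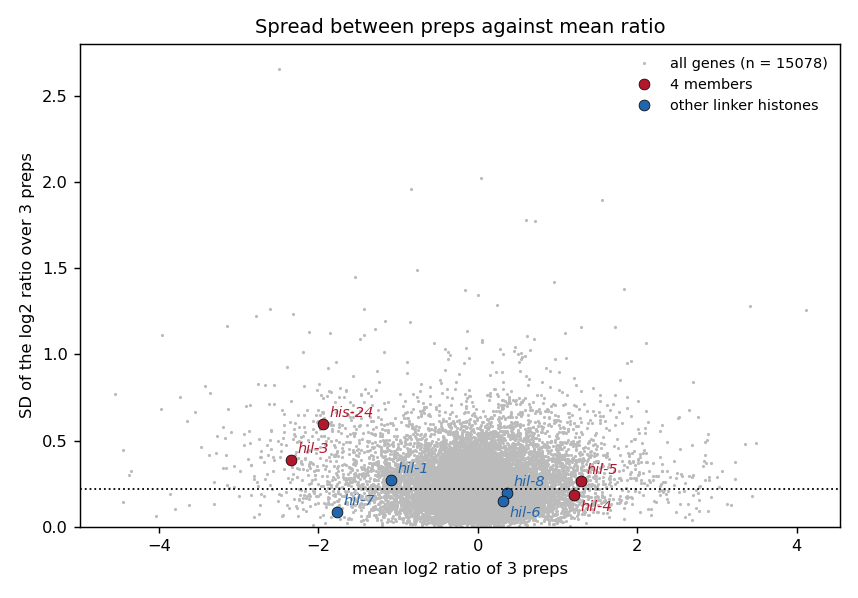
SD of the log2 ratio over 3 preps (y axis) against its mean (x axis) for all 15078 genes (grey), the 4 linker histone genes described in full (red) and the 4 others (blue), with the median SD as a dotted line. his-24 lies well above the dotted line, while hil-4 and hil-7 lie below it.

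By mean ratio over all preps the other measured H1 genes lay between the pairs, which the choice of the 4 favours. For hil-7 this did not hold throughout. Without prep 3 it was below his-24, at −1.81 against −1.66. With the running median over neighbouring probes removed it was also below his-24, at −1.89 against −1.79. Of 5 further linker histone genes listed, 4 had values, and hil-2 was not analysed here. hil-7, on chromosome IV, had log2 ratios of −1.79, −1.83 and −1.66 in preps 1, 2 and 3 and was below the reference at −1.76 ± 0.09 (SD, n = 3; limma adjusted p = 1.06e-05). It had one of the steadier ratios measured, with 11.1% of genes showing a smaller SD. hil-1, on chromosome V, an H1 variant described in muscle and pharynx, had −1.28, −1.21 and −0.78 and was below at −1.09 ± 0.27 (SD, n = 3; limma adjusted p = 0.000324).

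hil-8, on chromosome I, had log2 ratios of 0.26, 0.24 and 0.59 in preps 1, 2 and 3, with a mean of 0.36 ± 0.19 (SD, n = 3) that was not called (limma adjusted p = 0.0580). Without prep 1 it was called (0.41, limma adjusted p = 0.0264), and with the running median over neighbouring probes removed it was at 0.09 (limma adjusted p = 0.628). hil-6, on chromosome V, had 0.38, 0.42 and 0.15, with a mean of 0.32 ± 0.15 (SD, n = 3) that was not called either (limma adjusted p = 0.0856). All 3 values of both genes were positive and below every value of hil-4 and hil-5.

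Ordered by mean ratio from high to low, the 8 genes ran hil-5, hil-4, hil-8, hil-6, hil-1, hil-7, his-24 and hil-3. This order depended on the processing. With the running median over neighbouring probes removed, hil-4 (1.27) was above hil-5 (1.01) and hil-6 (0.31) above hil-8 (0.09). In that setting his-24 (−1.79) was also above hil-7 (−1.89). Neighbours whose ranges over the preps overlapped were hil-5 with hil-4, hil-8 with hil-6, hil-7 with his-24, and his-24 with hil-3. hil-7 minus his-24 was −0.48, 0.17 and 0.84 in preps 1, 2 and 3, so the order of those 2 genes was not the same on all arrays. hil-4 exceeded hil-8 by 0.84 ± 0.23 (SD), hil-6 exceeded hil-1 by 1.40 ± 0.42, and hil-1 exceeded hil-7 by 0.67 ± 0.19, with no overlap in these 3 steps. H1 genes resemble one another in sequence, and each was read by 1 probe, so a value may hold signal from a relative.

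Of the 4 linker histone genes outside the chosen set, 2 had a mean log2 ratio at least 1 away from 0, as had 13.1% of all genes. The 48 core histone genes, which encode the proteins of the nucleosome itself, held 0 such genes. Core histone genes ran from −0.92 ± 0.35 for his-5 (SD, n = 3; limma adjusted p = 0.00131) to 0.48 ± 0.41 for his-25 (limma adjusted p = 0.0424, and 0.401 without prep 3). Their median was −0.24, against 0.00 for all genes, with 18 below, 1 above and 29 not called, where 22.2% of all genes were called below and 21.7% above. The count below was 25 without prep 1, 9 without prep 2 and 10 without prep 3. In the same order 3918, 2335 and 2463 of all 15078 genes were called below. Core histone genes exist as near-identical copies, so a single gene's value is uncertain. The values of the copies may not be independent, which limits the counts and the median as well. The difference between the core and linker genes was not tested.

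Genes of proteins that work beside H1 were taken from lists by symbol. Of 10 histone variant genes, 4 were above, 2 below and 4 not called, against 21.7% above and 22.2% below over all genes, with a median log2 ratio of 0.27. The count above was 5 without prep 1, 3 without prep 2 and 2 without prep 3, and the count below was 2, 1 and 1. In the same order 3833, 2277 and 2460 of all 15078 genes were above, and 3918, 2335 and 2463 below. The highest was htas-1, which encodes an H2A variant of sperm, with 0.80, 1.17 and 1.78 in preps 1, 2 and 3 and a mean of 1.25 ± 0.49 (SD, n = 3; limma adjusted p = 0.000517). The lowest was his-71, an H3.3 gene, with −1.88, −1.28 and −1.49 and a mean of −1.55 ± 0.31 (SD, n = 3; limma adjusted p = 5.17e-05). his-71 is on the X chromosome, as his-24 and hil-3 are.

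Of 5 genes for proteins of sperm chromatin, 4 were above the reference and 1 was not called, against 21.7% above over all genes, with a median of 2.37. smz-2 was the highest at 2.885 ± 0.09 (SD, n = 3; limma adjusted p = 1.94e-06), and spch-1 was at 0.06 ± 0.22 (limma adjusted p = 0.746). All 4 called genes of this list stood higher than hil-5.

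Of 12 measured genes listed as histone chaperones, 10 were above, 1 was below and 1 was not called, against 21.7% above and 22.2% below over all genes, with a median of 0.71. nasp-2, an H3-H4 chaperone gene, was the highest at 1.16 ± 0.38 (SD, n = 3; limma adjusted p = 0.000417). The 1 below was attf-4, an AT-hook protein gene and not a known chaperone, at −0.57 ± 0.21 (limma adjusted p = 0.00814), a call that ended without prep 2 (−0.46, limma adjusted p = 0.132). hil-4 and hil-5 were higher than all 12 of these genes by mean ratio, but both were chosen by their ratios.

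Of 7 measured HMG protein genes, whose products bend DNA and can share binding sites with H1, 2 were above, 3 were below and 2 were not called, with a median of −0.35. Over all genes 21.7% were called above and 22.2% below. The list had members far out on both sides. hmg-12 was at 1.53, 1.49 and 1.02 in preps 1, 2 and 3, a mean of 1.35 ± 0.28 (SD, n = 3; limma adjusted p = 0.000104). Its relative hmg-11 was at −1.91, −2.16 and −2.28, a mean of −2.12 ± 0.19 (SD, n = 3; limma adjusted p = 5.54e-06).

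Of 21 genes of heterochromatin and silencing, 15 were above, 1 was below and 5 were not called, against 21.7% above and 22.2% below over all genes, with a median of 0.65. cec-4, a chromodomain protein that anchors heterochromatin at the nuclear edge, was the highest at 1.25 ± 0.16 (SD, n = 3; limma adjusted p = 9.15e-05). The 1 below was hpl-1, an HP1 homologue reported to bind methylated HIS-24, at −0.51 ± 0.11 (limma adjusted p = 0.0107), a call that ended without prep 2 (−0.49, limma adjusted p = 0.0988). sir-2.1, a deacetylase gene that acts with his-24 in germ cells, was at 0.14 ± 0.25 (limma adjusted p = 0.475). The count above was 17 without prep 1, 12 without prep 2 and 13 without prep 3. In the same order 3833, 2277 and 2460 of all 15078 genes were called above.

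**Figure D3:**
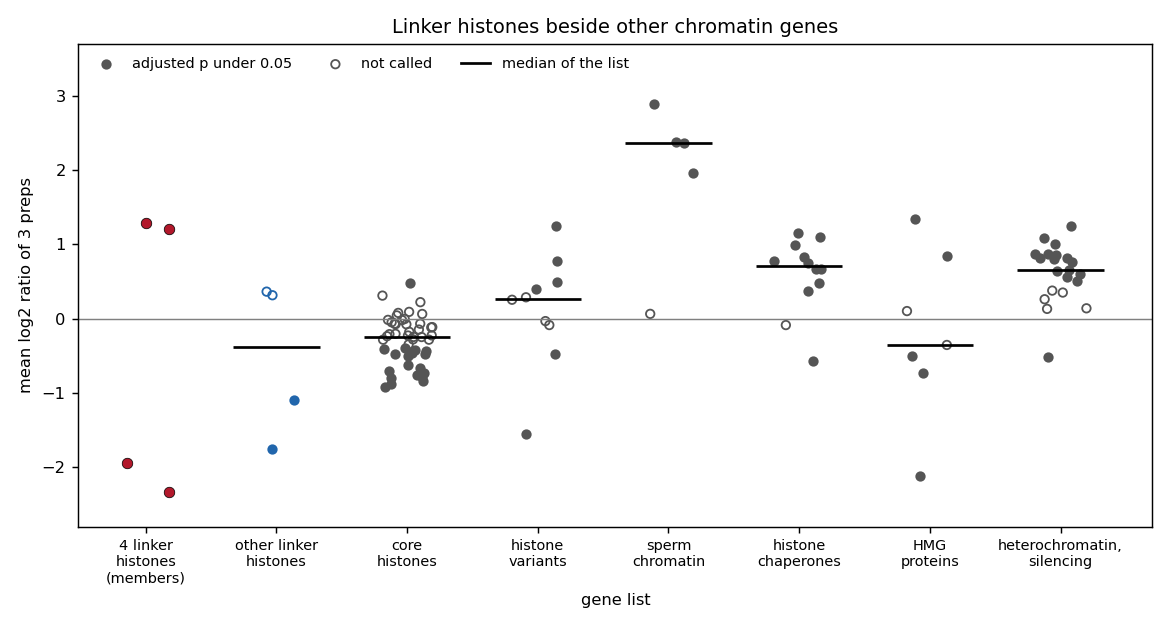
Mean log2 ratio of 3 preps (y axis) for the 4 linker histone genes described in full (red), the 4 others (blue) and 6 lists of chromatin genes (grey). Filled points passed the test, open points did not, and black lines are list medians, while the red points carry no test. his-24 and hil-3 lie below all 48 core histone genes, and hil-5 and hil-4 above them. The choice of the 4 toward both ends of the histone genes favours this.

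The 2 lower genes share the X chromosome. On X, 33.2% of 2267 genes were called below and 6.48% above, with a median log2 ratio of −0.21, against 20.3% below and 24.4% above on the autosomes. Of the X-linked genes, 30 were lower than his-24 and 14 lower than hil-3. The choice of these genes by their ratios favours such a low place. Among the 107 other chromatin genes measured, 3 were on X and all 3 were below: his-71, his-38 at −0.63 ± 0.11 (SD, n = 3) and hpl-1. The 2 other H1 genes below the reference, hil-7 and hil-1, are on autosomes, where 49 of 2263 genes on chromosome IV were lower than hil-7 and 276 of 3867 on chromosome V were lower than hil-1. The part of X linkage in the ratios was not tested.

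**Figure D4:**
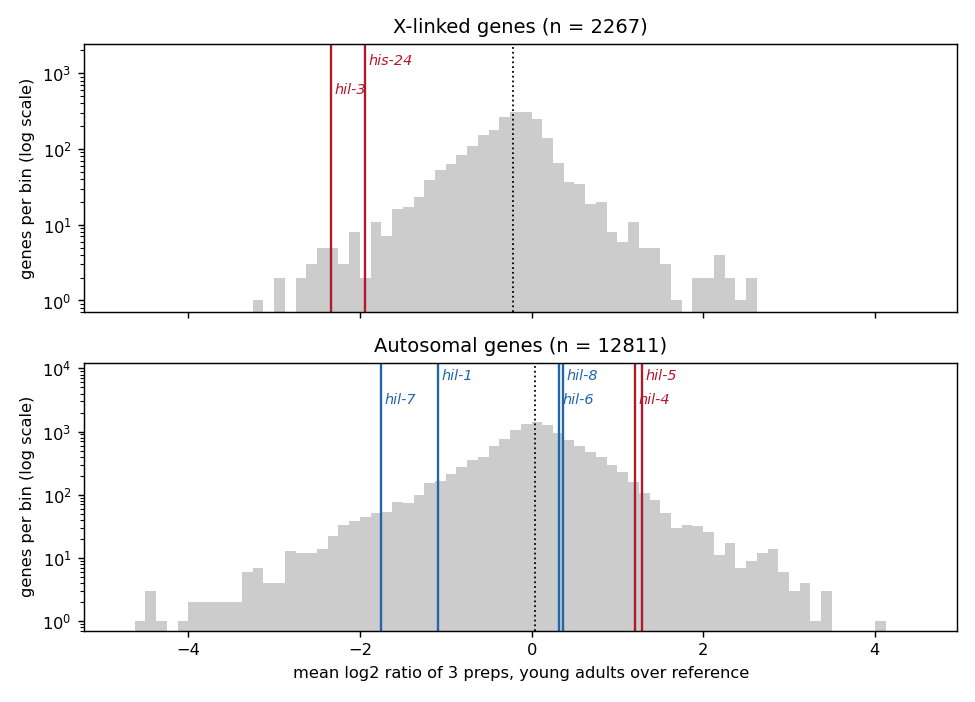
Number of genes per bin (y axis, log scale) by mean log2 ratio of 3 preps (x axis) for X-linked genes (upper panel, n = 2267) and autosomal genes (lower panel, n = 12811). Lines mark linker histone genes, red for the 4 described in full and blue for the others, and dotted lines are the panel medians. his-24 and hil-3 lie in the lower tail of the X-linked genes, which their choice by ratio favours.

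Next to the 4 genes on their chromosomes, neighbours had medians near the reference but spread to both sides of it. The 10 nearest measured protein-coding genes, 5 on each side, had a median log2 ratio of 0.04 around hil-5, 0.04 around hil-4, −0.19 around his-24 and −0.13 around hil-3. The 4 genes were chosen for outlying ratios, so less extreme neighbours were likely in advance, and a regional effect was not tested. The neighbours ran from −1.13 to 1.07 around hil-5, −0.60 to 1.38 around hil-4, −0.83 to 1.22 around his-24 and −1.03 to 0.62 around hil-3. Neither his-24 nor hil-3 had a neighbour as low as itself. hil-5 was likewise above its highest neighbour, at 1.07. hil-4 was the exception: pgl-3, a P granule gene next to it on chromosome V, was at 1.38 ± 0.40 (SD, n = 3), and gtnt-10 on its other side at −0.57 ± 0.22.

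The probe list had its own local levels. The running median over 201 neighbouring probes around hil-5 was 0.02, 0.34 and 0.48 in preps 1, 2 and 3. With that local level removed the mean log2 ratio of hil-5 was 1.01. Around hil-4 the local level was −0.04, −0.05 and −0.12, around his-24 it was −0.31, −0.12 and −0.03, and around hil-3 it was −0.33, −0.11 and −0.10. With these levels removed, the mean ratios of those 3 genes moved by less than their SD.

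Genes with the ratios most like each H1 gene were taken by Euclidean distance over the 3 arrays, in log2 units. Nearest to hil-4 were ndg-4 at a distance of 0.04, C34F11.2 at 0.08 and him-1, a cohesin subunit gene, at 0.11. Nearest to hil-5 were suca-1, a gene of a citric acid cycle enzyme, at 0.05, T19B4.5 at 0.06 and K04G7.1 at 0.08. With the running median along the probe list removed, ndg-4, C34F11.2 and him-1 lay at 0.40, 0.30 and 0.66 from hil-4, and suca-1, T19B4.5 and K04G7.1 at 0.99, 0.37 and 0.38 from hil-5. Without prep 3, over 2 arrays, him-1 was the nearest of its 3 to hil-4, at 0.016. Many genes had such ratios, with 363 within 0.5 of hil-4 and 245 within 0.5 of hil-5.

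Fewer genes lay near the lower pair, with 41 within 0.5 of his-24 and 47 within 0.5 of hil-3. Nearest to his-24 were srap-1 at 0.14, gtnt-16 at 0.18 and cnc-2, an antimicrobial peptide gene, at 0.18. Nearest to hil-3 were M01H9.3 at 0.10, the neuropeptide gene nlp-21 at 0.13 and F11A5.9 at 0.17. With the running median removed, srap-1 lay at 0.53 and gtnt-16 and cnc-2 each at 0.34 from his-24, while M01H9.3 and nlp-21 lay at 0.77 and 0.67 and F11A5.9 at 0.11 from hil-3. Without prep 3, over 2 arrays, cnc-2 was the nearest of its 3 to his-24, at 0.019. All 6 had their lowest ratio in prep 3 and their highest in prep 1, which the measure favours. With only 3 arrays a short distance mostly reflects a like mean ratio.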

How the data were processed

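The authors deposited a log2 ratio for each probe on each array. How they corrected, normalized and dyed the arrays, and with which tools, is not stated in the labels. That the log has base 2 rests on the values: taken as base 2, 100% of the ratios under 1 fell on steps of 0.001 (tolerance 0.01 of a step), and taken as base 10 only 1.46% did. Array medians were 0.01, 0.01 and 0.02, so the ratios were used as deposited. Scale and centring are thus known, and the direction is likely only.

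Of 20000 probes, 19664 had a value on all arrays. The platform's table gave 1 symbol for 15655 probes, several for 198, and did not list the rest. Probes of a gene were averaged (414 genes). Chromosomes and neighbours came from a RefSeq table of WBcel235, without coordinates, as no build is named for the array. The planned protein and promoter sequences were not analysed here.

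The test was limma 3.58.1 in R 4.3.3 (lmFit on an intercept, eBayes, two-sided, Benjamini-Hochberg over 15078 genes at 0.05). All arrays share the reference RNA, whose own variation the test leaves out. On simulated data the steps recovered large changes, but with variances spread as measured the share of false calls exceeded the threshold aimed at. Named were the H1 genes, the highest and lowest gene of each chromatin list, and the 3 genes nearest to each of the 4. The neighbouring genes, his-38 and sir-2.1 were named after their values were seen. The 4 genes, the lists and the tests were chosen with earlier results of these data known. Alternatives were array centring, scaling and quantile normalization, inclusion of probes with 2 values, removal of a running median over 201 probes, probes as the unit, the sign turned, robust eBayes, no moderation, a 1.2-fold margin, and each prep left out.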

Additional observations from a re-analysis of the deposited data

How the results depend on the processing

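The direction of hil-5, hil-4, his-24 and hil-3 was the same under every alternative but the turned sign. Over the other 9 alternatives applied to a value, hil-5 ran from 1.01 to 1.43 and hil-4 from 1.13 to 1.31. his-24 ran from −2.25 to −1.66 and hil-3 from −2.54 to −2.16. Inclusion of probes with 2 values and probes as the unit could not change these means, as each gene had 1 probe with all values. Array centring moves all genes of an array alike. With the running median over neighbouring probes removed, hil-5 moved by more than its SD, to 1.01, and the calls of his-25 (0.24, limma adjusted p = 0.320) and hpl-1 (−0.26, limma adjusted p = 0.128) ended; the cause was not tested. With 1 prep left out, the distance between the pairs ran from 3.13 to 3.77. The chromatin list genes called above ran from 29 to 39, and those called below from 14 (without prep 2) to 34, against 36 and 27 with all preps. All genes called above ran from 2277 to 3833 and below from 2335 to 3918, against 3278 and 3351. Without moderation, limma's fit called 0 genes above, 0 below and 0 of the list genes, with 5400 genes at an unadjusted p of 0.05, since each variance then rests on 3 values. Against a 1.2-fold margin 1973 genes were above and 2087 below, with 15 list genes below, a smaller count by construction, and his-25, attf-4 and hpl-1 were no longer called. With the sign turned the means were 2.34 for hil-3, 1.94 for his-24, −1.203 for hil-4, −1.29 for hil-5 and −3.39 for the distance between the pairs. They were 1.09 for hil-1, 1.76 for hil-7, −1.25 for htas-1, −2.885 for smz-2, −1.16 for nasp-2, −1.35 for hmg-12, −1.25 for cec-4, −0.48 for his-25, 1.55 for his-71, 0.57 for attf-4, 2.12 for hmg-11, 0.51 for hpl-1 and 0.92 for his-5. Signal over background is unknown, since only ratios were used, so a dim spot could not be told from a bright one. No paired analysis was possible because all preps form 1 group.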
